A study of Mus musculus with 12 samples.

Results

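The genes described here are 8 of the Kruppel-like factors, Klf2, Klf3, Klf4, Klf5, Klf6, Klf9, Klf10 and Klf13, chosen by name out of 21887 mouse protein-coding genes. A peak was counted for one of them when its midpoint lay in the gene body or within 50 kb of it and no other protein-coding gene had a nearer end. All 8 genes had peaks in each of the 9 libraries analysed, against 54.21% to 81.55% of all protein-coding genes, depending on the library. CUT&RUN, in which an antibody guides a nuclease that cuts and releases the chromatin around its target, had been carried out on lung epithelial cells of wild type C57Bl6 mice at E17.5, shortly before birth. The cells came from pooled fetal lungs and were enriched with magnetic beads against the epithelial surface protein EpCAM, and each reaction held 100000 of them. There were 3 libraries for NKX2-1, 2 for PRDM16, 1 for PRDM3 and 3 for trimethylated lysine 4 of histone H3 (H3K4me3). PRDM16 replicate 1 was made with a rabbit antibody and replicate 2 with a sheep antibody, and every other antibody of these groups was from rabbit. The 3 IgG samples of the series were not analysed here. No background library was therefore set beside the peaks here, and the sources used do not say whether IgG libraries entered the peak calling. All groups are the same untreated wild type cells, and the labels do not say whether replicates came from separate pools of animals, so the p-values below measure only the spread between these libraries.

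Kruppel-like factors are zinc-finger proteins. Their closely related fingers bind GC-rich and CACCC sequences, the same sequences that the Sp proteins bind, and the regions outside the fingers set whether a member activates or represses. Klf2, Klf4, Klf5 and Klf6 belong to a branch that mostly activates transcription and recruits acetyltransferases. Klf3 recruits the CtBP corepressor, and Klf9, Klf10 and Klf13 recruit the Sin3A corepressor. In the lung, Klf5 is known for its part in the maturation of the epithelium around birth, and Klf2 has also been tied to lung maturation. NKX2-1 is the homeodomain factor that defines lung epithelium, PRDM16 and PRDM3 (the product of Mecom) are related zinc-finger proteins with a SET-like domain, and H3K4me3 marks the starts of active genes.

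The promoters of 6 of the 8 genes were found in the RefSeq promoter table of GRCm38.p6, the assembly of mm10: Klf2, Klf3, Klf4, Klf6, Klf9 and Klf13. Printed here are the 250 bases before the 5′ end of 4 of them, 5′ to 3′ on the gene's own strand, because the windows of Klf2, Klf3 and Klf6 hold summits of 3 or more factor libraries, while that of Klf4 holds many motif matches and no summit. Some Klf4 summits lie just beyond the window, as given below. Capitals mark every match to CCNCNCC, a short form of the Kruppel-like and Sp motif, on either strand, with overlapping matches run together. The motif shown in capitals was picked after the matches had been counted. The windows are chr8:72318812-72319061 on the + strand for Klf2, chr4:55532476-55532725 on the − strand for Klf4, chr13:5861239-5861488 on the + strand for Klf6 and chr5:64803271-64803520 on the + strand for Klf3.
Klf2: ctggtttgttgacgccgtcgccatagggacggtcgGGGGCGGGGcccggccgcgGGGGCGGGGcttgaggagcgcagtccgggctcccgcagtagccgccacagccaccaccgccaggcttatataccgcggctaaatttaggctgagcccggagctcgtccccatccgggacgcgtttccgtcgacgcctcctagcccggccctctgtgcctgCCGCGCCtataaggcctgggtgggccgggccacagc
Klf4: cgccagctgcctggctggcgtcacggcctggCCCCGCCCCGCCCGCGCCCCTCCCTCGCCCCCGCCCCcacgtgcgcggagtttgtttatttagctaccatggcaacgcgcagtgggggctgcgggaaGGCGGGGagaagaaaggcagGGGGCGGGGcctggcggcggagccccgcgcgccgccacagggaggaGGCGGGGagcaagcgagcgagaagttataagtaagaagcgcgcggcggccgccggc
Klf6: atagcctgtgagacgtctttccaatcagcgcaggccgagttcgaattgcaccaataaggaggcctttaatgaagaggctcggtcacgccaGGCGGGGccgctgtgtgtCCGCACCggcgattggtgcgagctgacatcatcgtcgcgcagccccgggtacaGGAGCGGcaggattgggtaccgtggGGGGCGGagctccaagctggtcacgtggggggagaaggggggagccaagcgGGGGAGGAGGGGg
Klf3: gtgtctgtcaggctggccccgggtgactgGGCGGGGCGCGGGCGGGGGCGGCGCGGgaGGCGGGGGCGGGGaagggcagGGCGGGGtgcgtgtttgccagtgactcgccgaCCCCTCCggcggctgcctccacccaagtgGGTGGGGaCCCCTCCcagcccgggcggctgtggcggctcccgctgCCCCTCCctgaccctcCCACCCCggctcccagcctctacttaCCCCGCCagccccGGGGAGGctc

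These windows were rich in G and C. GC content was 71.2% for Klf2, 74.0% for Klf4, 64.8% for Klf6, 78.4% for Klf3, 59.6% for Klf9 and 71.6% for Klf13. The median of the 6 was 71.4%, against 52.4% over 32851 windows of the same length in the table, and the median ratio of observed to expected CpG was 0.844 against 0.374. CCNCNCC had a match in all 6 windows and in 65.4% of all windows, with 16 matches in Klf3, 12 in Klf4, 6 each in Klf6 and Klf13, 5 in Klf2 and 4 in Klf9. The Klf3 and Klf4 windows thus held the most matches. The letters TNAAGTG (for NKX2-1; in 10.1% of all windows), AAGATA (for the first zinc-finger domain of PRDM3; 8.77%) and GATGAG (for the second; 10.1%) had no match in the 6 windows on either strand. Each of these is a match of letters within 250 bases and nothing more. In the Klf2 window lay peak summits of 5 of the 6 factor libraries (all but NKX2-1 replicate 3), in the Klf3 and Klf6 windows those of 3 libraries each, in the Klf13 window that of 1 library, and in the Klf4 and Klf9 windows none. The highest Klf4 peaks at the 5′ end had summits at −276, 1237 and −375 bases in NKX2-1 replicates 1 to 3. They lay at −259 and −404 in PRDM16 and at −275 in PRDM3, so several were just beyond the window. At Klf9 the summits were at 140, −294 and −276 in NKX2-1, −341 and −912 in PRDM16 and 140 in PRDM3.

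The lists of the 6 libraries of NKX2-1, PRDM16 and PRDM3, called factor libraries below, held 52283 to 111489 peaks, and the H3K4me3 lists 14646 to 19117. Each peak carries a fold enrichment over background that the authors' peak caller gave. It is used here only to describe and to rank peaks within a list, and a rank percentile of 100 is the highest peak of a list. NKX2-1 replicates 2 and 3 were weak lists: 668 and 1182 of their peaks reached a −log10 q of 5, against 12964 in replicate 1. Read depth cannot be seen in peak lists (the labels give at least 15000000 reads per library). Peak names fell into a first letter series (NKX2-1 replicate 1, H3K4me3 replicate 1, both PRDM16 and PRDM3) and a second (the other NKX2-1 and H3K4me3 libraries), so any difference between NKX2-1 and the PRDM proteins partly coincides with that split. H3K4me3 at the gene end was found for 6 of 6 epithelial markers (Epcam, Cdh1, Krt8, Krt18, Nkx2-1 and Sftpc), 2 of 5 mesenchymal markers (Col1a1 and Col1a2) and 1 of 4 endothelial markers (Kdr). The defining markers Pdgfra, Pecam1, Cdh5 and Ptprc had none.

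Each of the 8 genes was linked to binding of all 3 proteins. A linked region of NKX2-1 (covered in at least 2 of 3 libraries, at least 20 bases long) was found at 8 of 8 genes and at 51.3% of all protein-coding genes. For PRDM16 (covered in both libraries) the counts were 8 of 8 and 59.1%, and for PRDM3, with 1 library and no replicate check, 8 of 8 and 67.2%. A region shared by all 3 proteins, that is an NKX2-1 region overlapping a PRDM16 and a PRDM3 region, was linked to 8 of 8 genes against 35.1%. When lists were limited to peaks whose −log10 q reached 5, an NKX2-1 region was linked to 5 of 8 genes, against 6.095% of all genes, and a shared region to 3 of 8, Klf3, Klf4 and Klf13, against 2.68% of all genes. With the 10000 highest peaks of each list a shared region was linked to 5 of 8, against 6.05% of all genes.

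Most of the Kruppel-like factor genes also had more sequence nearest to their ends than the median gene, counting the gene body and up to 50 kb on each side. The stretch from which a gene could collect peaks had a median of 93.8 kb for the 8 genes and of 46.5 kb over all genes, from 43.1 kb at Klf2 to 124.4 kb at Klf13. The factor libraries had 329 linked peaks in all, with a median of 37 per gene against 10 over all genes. Per 100 kb of stretch the medians were 39.5 and 21.9 peaks. The part of the stretch's size in the counts was not tested.

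Most of the peaks of these genes lay outside H3K4me3, and all but 1 of the sites found in every factor library lay over it. Of the 329 factor peaks, 125 overlapped an H3K4me3 peak by at least 1 base and 204 did not. Merging overlapping factor peaks gave 152 sites, 19 over H3K4me3 and 133 outside. Of the sites outside, 102 were seen in 1 library and 31 in 2 or more, and 1 was seen in all 6 libraries, at Klf6. Of the sites over H3K4me3, 9 were seen in all 6 libraries: 1 at each gene and a second at Klf9. The map of peaks by library shows these columns of filled symbols at the gene ends.

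**Figure D1:**
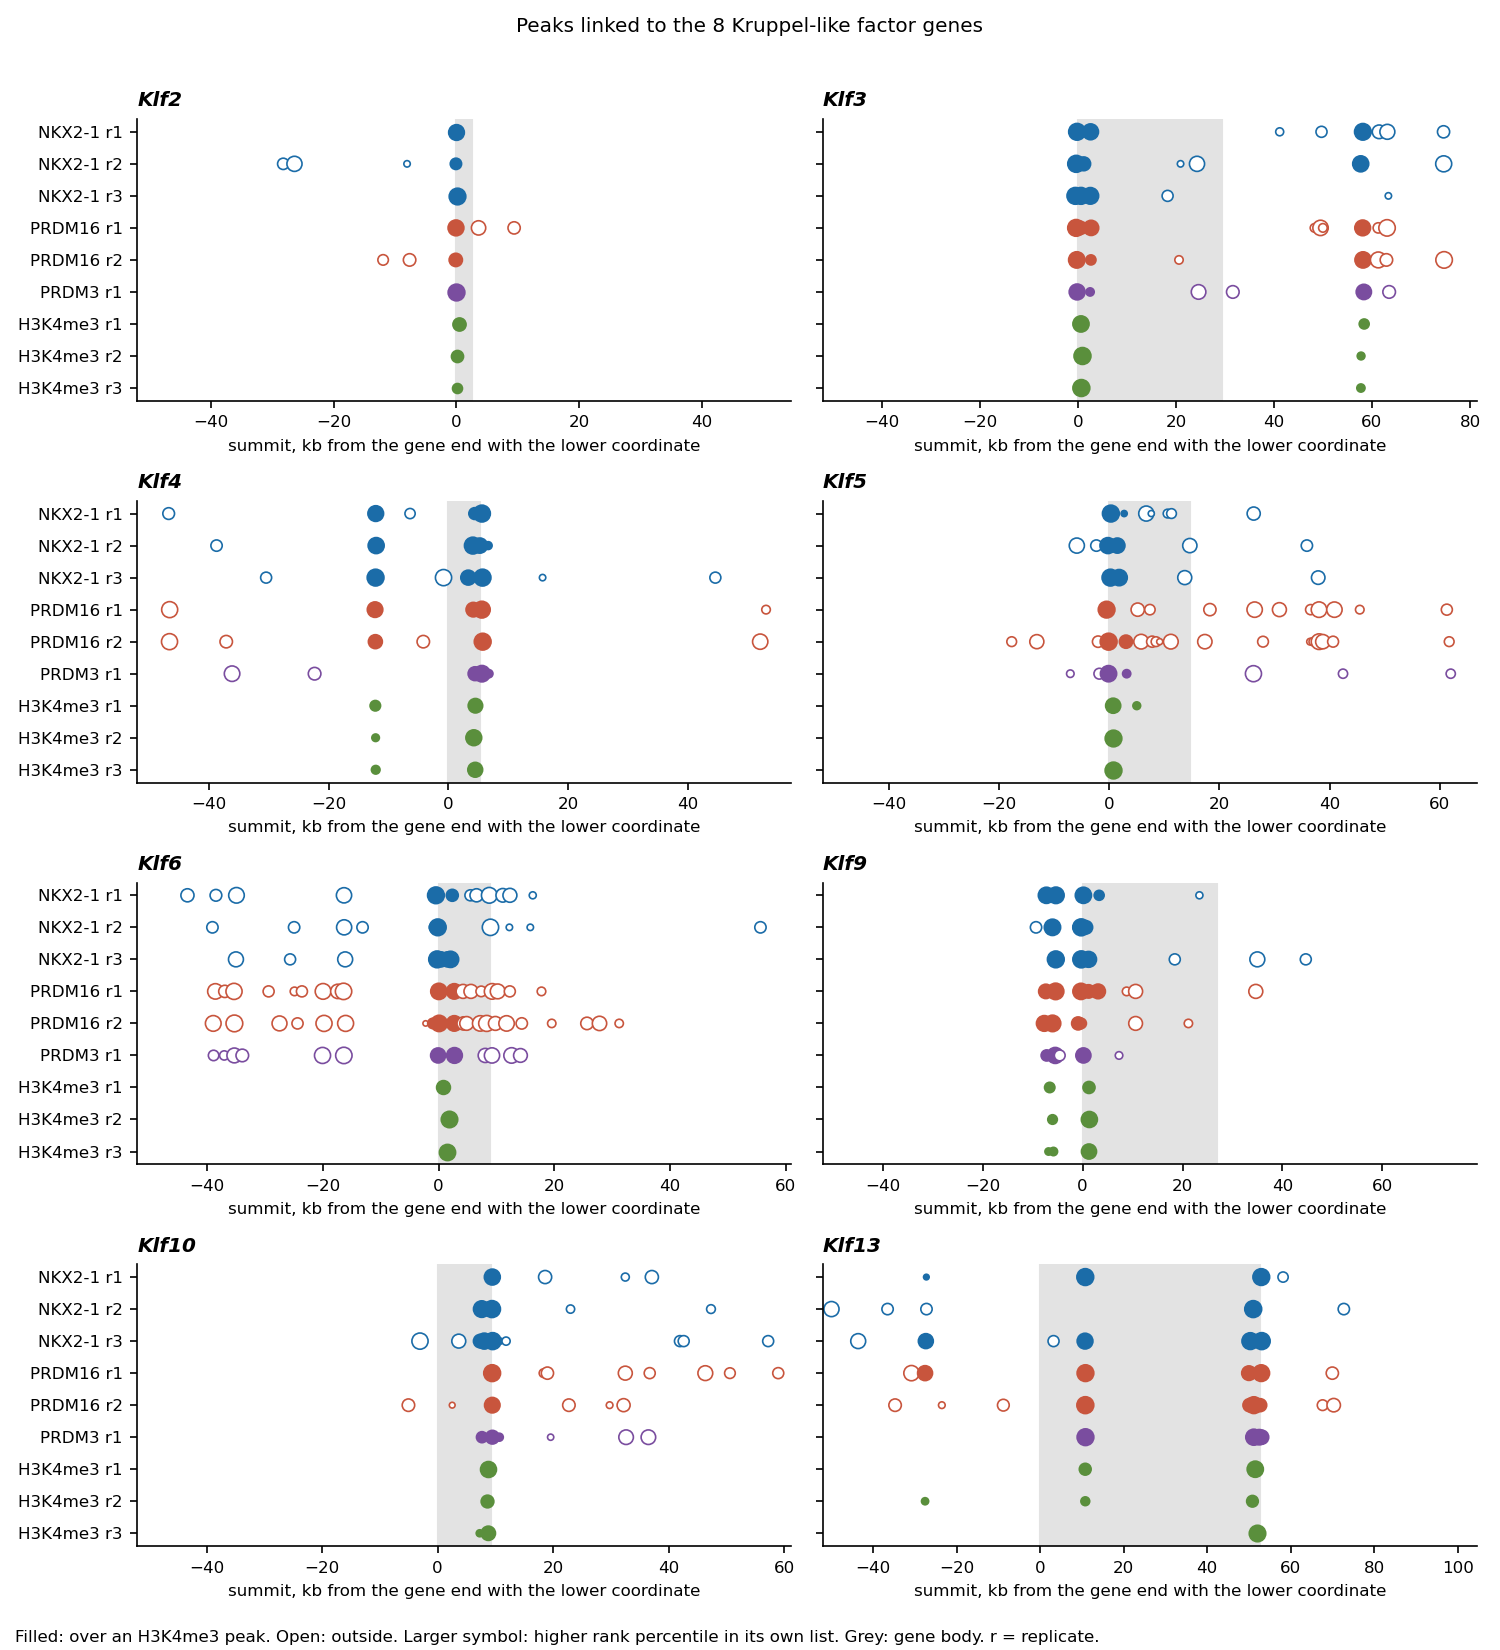
Summits of all peaks linked to the 8 genes, 1 panel per gene, with position in kb from the gene end of lower coordinate on the horizontal axis and 1 line per library on the vertical axis. Filled symbols overlap an H3K4me3 peak and open symbols do not, a larger symbol has a higher rank percentile in its own list, and the gene body is grey. All 9 libraries have filled symbols at 1 end of every gene, and open symbols are most numerous at Klf6 and Klf5.

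An H3K4me3 region lay at the gene end of 8 of 8 genes, against 54.8% of all genes. It was judged at the 5′ end for the 6 genes whose strand the promoter table gives, and at either end for Klf5 and Klf10. At 7 of the 8 genes this region was wide. It measured 4708 bases at Klf9, 4559 at Klf3, 4403 at Klf4, 4107 at Klf13, 4061 at Klf6, 3927 at Klf5 and 3828 at Klf10, which are percentiles 95.2 to 98.1 among the 11999 genes with such a region. At Klf2 it measured 1853 bases, percentile 57.03. The median was 4084 bases for the 8 genes and 1706 bases over all 11999. A width of at least 3500 bases, a bound chosen after the widths were seen, was reached by 7 of 8 genes and by 6.73% of all genes with a region. Peaks of all 6 factor libraries overlapped the region at 8 of 8 genes, against 48.2% of all genes with a region. Among genes with a region of at least 3500 bases, the count was 7 of 7 against 93.9%, so that at this width the Kruppel-like factor genes had the share that other genes had.

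**Figure D2:**
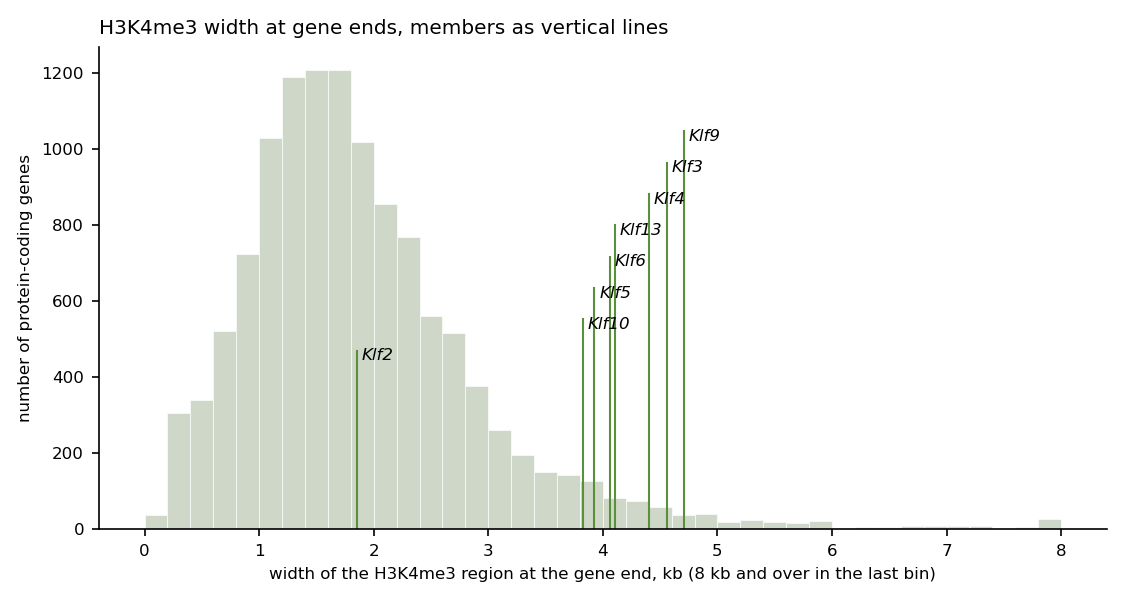
Width of the H3K4me3 region at the gene end in kb (horizontal axis) and number of protein-coding genes per bin of width (vertical axis), for 11999 genes, with the 8 Kruppel-like factor genes as labelled vertical lines whose height carries no value. Klf2, at 1853 bases, sits in the bulk of the distribution, and the other 7 lines stand between 3828 and 4708 bases in its upper tail.

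Within the activating branch, Klf4, a barrier factor of surface epithelia and one of the reprogramming factors, had high peaks of all 3 proteins at its 5′ end. Over the H3K4me3 region chr4:55529795-55534197 the fold enrichment of the highest NKX2-1 peak was 13.99, 5.70 and 6.39 in replicates 1 to 3. It was 12.01 and 9.72 in PRDM16 replicates 1 and 2 and 6.16 in PRDM3. H3K4me3 itself had 19.8, 56.6 and 39.0. In rank these peaks stood at percentiles 98.4 to 98.8 of the NKX2-1 lists, 97.6 and 98.0 of the PRDM16 lists and 93.1 of the PRDM3 list, all in the top 10% of their lists, whereas the H3K4me3 peaks stood lower, at 70.4 to 85.6. The 13.99 was also the highest value of NKX2-1 replicate 1 among the 8 genes. A further H3K4me3 region of 310 bases, chr4:55514847-55515156, lay 12135 bases beyond the far end of Klf4. It carried NKX2-1 peaks of 6.59, 3.64 and 5.59 and PRDM16 peaks of 5.26 and 3.82, and no PRDM3 peak.

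Klf5, which encodes a factor of epithelial maturation, combined a strong gene-end peak with many PRDM16 peaks away from it. Over chr14:99297871-99301797, at the gene end of lower coordinate, NKX2-1 had 13.2, 3.47 and 5.59, PRDM16 11.53 and 10.28 in replicates 2 and 1, and PRDM3 5.83. The 11.53 was the highest PRDM16 replicate 2 value among the gene-end peaks of the 8 genes, at percentile 99.0 of its list. NKX2-1 was uneven here, with replicate 2 at percentile 87.4 and a −log10 q of 0.686. H3K4me3 had 21.9, 73.0 and 61.8. PRDM16 had 11 and 18 linked peaks at Klf5 in replicates 1 and 2, PRDM3 had 7, and NKX2-1 had 7, 6 and 4. Of the 53 factor peaks, 42 lay outside H3K4me3. Among the 28 sites outside, 8 were seen in 2 or more libraries, and 4 of those 8 carried no NKX2-1 peak. The site chr14:99335560-99337114, whose middle lies 22925 bases beyond the gene, had 5.39 and 5.25 in the PRDM16 libraries and 2.83 in NKX2-1 replicate 3. The site chr14:99324557-99325548, 11641 bases beyond it, had 4.07 in NKX2-1 replicate 1, 5.02 in PRDM16 replicate 1 and 5.43 in PRDM3.

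Klf6, an early-response gene induced by tissue injury, had the most peaks of the 8 genes and was the one with shared regions outside H3K4me3. It had 81 factor peaks, 65 of them outside H3K4me3: NKX2-1 had 12, 10 and 7, PRDM16 19 and 21, and PRDM3 12. All counts but that of NKX2-1 replicate 3, which was highest at Klf10 with 10, were the highest of the 8 genes in their library. At the 5′ end, over chr13:5860610-5864670, NKX2-1 had 10.9, 4.88 and 5.59, PRDM16 7.44 and 6.52, PRDM3 4.86 and H3K4me3 17.6, 66.9 and 50.8. In the 3 NKX2-1 libraries this was the highest peak of Klf6, whereas in the PRDM libraries the highest lay far from the gene: at 16270 bases from the gene end in PRDM16 replicate 1, 35123 in replicate 2 and 16269 in PRDM3, all upstream.

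The site of Klf6 outside H3K4me3 with a peak in every factor library was chr13:5843913-5846007, centred 16529 bases upstream of the 5′ end. Its peaks in NKX2-1 replicates 2 and 3 were weak, with a −log10 q of 0.6857 and 0.7645. Its fold enrichment was 5.97, 3.26 and 3.20 in the NKX2-1 libraries, 8.08 and 5.62 in the PRDM16 libraries and 6.16 in PRDM3. These are percentiles 79.3, 77.7 and 75.4 of the NKX2-1 lists, 92.8 and 87.7 of the PRDM16 lists and 93.1 of the PRDM3 list, so the PRDM peaks ranked higher in their lists than the NKX2-1 peaks did in theirs. At chr13:5841113-5842065, 19900 bases upstream, both PRDM16 libraries (5.74 and 5.92) and PRDM3 (5.43) had a peak and no NKX2-1 library had one.

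Klf6 had 5 shared regions, of which 4 lay outside H3K4me3. Of the 4, 1 lies within the site just described (chr13:5845042-5845539). The others outside were chr13:5826184-5826640, 35077 bases upstream, with PRDM16 at 7.01 and 9.15, chr13:5870364-5870700, 139 bases beyond the gene, with NKX2-1 replicates 1 and 2 at 6.71 and 4.07, and chr13:5873714-5873876, 3402 bases beyond it, where NKX2-1 replicate 2 had 2.19, percentile 5.89. At least 5 shared regions were linked to 0.731% of all genes, at least 2 to 5 of the 8 genes (not Klf2, Klf4 and Klf5) against 10.1%, and a shared region outside H3K4me3 to 1 of 8 against 7.82%. The bounds of 2 and 5 were set after the counts were seen. The 5 regions at Klf6 fell to 3 without NKX2-1 replicate 1, without replicate 2, with a link distance of 10 kb or with the ends of all gene types competing. They fell to 0 when peaks had to reach a −log10 q of 5 or with the 10000 highest peaks. Without NKX2-1 replicate 1, and likewise without replicate 3, Klf3 and Klf13 each had 1 shared region in place of 2 and 3, and Klf4 had 2 in place of 1. Without PRDM16 replicate 2, Klf3 had 4 and Klf4 had 2.

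**Figure D3:**
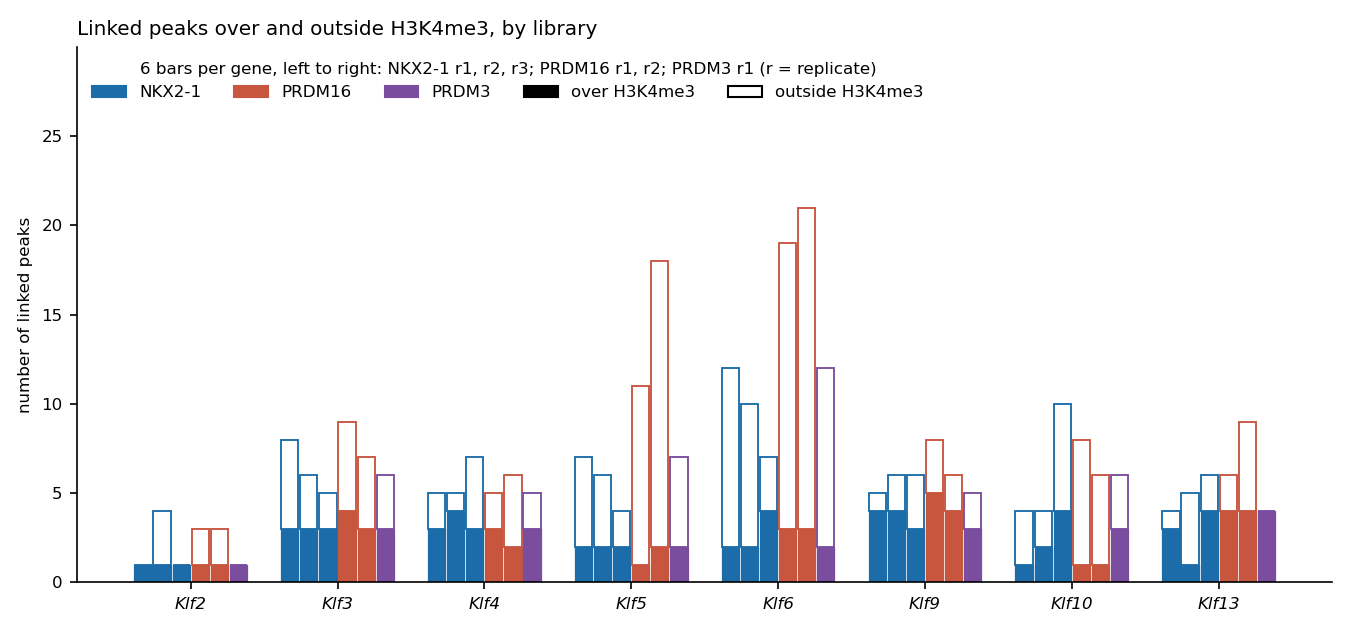
Number of peaks linked to each gene (vertical axis) in the 6 factor libraries, drawn as 6 bars per gene in the order NKX2-1 replicates 1 to 3, PRDM16 replicates 1 and 2, and PRDM3, with the filled part of a bar over H3K4me3 and the open part outside. The tallest bars are PRDM16 at Klf6 (19 and 21) and at Klf5 (11 and 18), and nearly all of their height is open.

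The PRDM16 and PRDM3 regions outside H3K4me3 were concentrated at the same pair of genes. At least 6 PRDM16 regions outside H3K4me3 were found at Klf5 (6) and Klf6 (10), that is at 2 of 8 genes against 3.35% of all genes. At least 5 PRDM3 regions outside were found at Klf5 (5) and Klf6 (10), 2 of 8 against 6.78%. Both bounds were set after the counts were seen. At least 1 PRDM16 region outside was found at 6 of 8 genes against 33.8%, at least 1 PRDM3 region outside at 6 of 8 against 48.1%, and the genes without one were Klf2 and Klf13 for both proteins. For NKX2-1 the count was 3 of 8, Klf3, Klf6 and Klf13, against 18.6%. Of the 31 sites outside H3K4me3 seen in 2 or more libraries, 22 included an NKX2-1 peak, 9 had PRDM16 or PRDM3 peaks alone, and 0 had NKX2-1 peaks alone. No share over all genes is given for these sites. The lists differed in length and NKX2-1 replicates 2 and 3 were weak, and the part of this in the counts was not tested.

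Klf2, known for its role in endothelium and in lung maturation, had the fewest peaks of the 8 genes and the narrowest H3K4me3 region. It had 13 factor peaks, 6 over H3K4me3 and 7 outside, and each of the 7 outside was seen in 1 library alone. Over chr8:72318625-72320477, NKX2-1 had 6.57, 2.44 and 4.79, the lowest values of the 8 genes in all 3 libraries, and replicate 2's peak had a −log10 q of 0.0601. PRDM16 had 5.93 and 3.46, the lowest in replicate 1 and the second lowest in replicate 2, after the 3.18 of Klf9. PRDM3 went the other way: its 7.77 at Klf2, percentile 97.1, was the highest of the gene-end peaks, the next being 6.16 at Klf4. A PRDM3 peak inside Klf13, described below, was higher still at 7.85. H3K4me3 had 15.6, 26.8 and 15.1, percentiles 56.0, 45.8 and 27.9. Endothelial marker genes were mostly without H3K4me3 in these lists (3 of 4 without), and the part of cells other than epithelium at Klf2 was not tested. The rank of PRDM3 at Klf2 rests on 1 library.

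Klf3, a CtBP-binding repressor, carried the highest H3K4me3 of the 8 genes in the second letter series. Over chr5:64802270-64806828 H3K4me3 had 27.4, 92.4 and 70.1, percentiles 89.96, 99.6 and 99.3, with replicate 1 far below the others in fold. NKX2-1 had 11.6, 7.33 and 5.59 there, PRDM16 11.8 and 6.67, and PRDM3 5.22. Klf3 had 41 factor peaks, 19 over H3K4me3 and 22 outside. A further H3K4me3 region of 870 bases, chr5:64861083-64861952, lay 28617 bases beyond the gene, with NKX2-1 at 10.2 and 3.64 in replicates 1 and 2 and no peak in replicate 3, PRDM16 at 5.74 and 6.30 and PRDM3 at 4.58. Outside H3K4me3, the site chr5:64865915-64867191 was seen in 5 of the 6 libraries, with 8.60 in PRDM16 replicate 1 as its highest value. The predicted gene Gm38457 overlaps Klf3 and took 19 peaks of the Klf3 window, H3K4me3 peaks included, which are not counted for Klf3.

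Klf9, a gene induced by thyroid hormone and glucocorticoids, had a pair of H3K4me3 regions, each with peaks of all 6 factor libraries. Over the 5′ end, chr19:23140134-23144841, NKX2-1 had 7.81, 6.51 and 7.99, PRDM16 7.35 and 3.18, PRDM3 4.47 and H3K4me3 12.6, 59.6 and 40.5. Over chr19:23134094-23136510, a region of 2417 bases centred 5924 bases upstream, NKX2-1 had 9.33, 4.07 and 5.59, PRDM16 8.63 and 7.41, PRDM3 5.38 and H3K4me3 8.86, 12.8 and 9.62. H3K4me3 was thus lower at the upstream region in all 3 libraries, whereas PRDM16 and PRDM3 were higher there in all 3 of theirs, and NKX2-1 was higher in 1 of 3. Of the 36 factor peaks of Klf9, 23 lay over H3K4me3, the largest number of the 8 genes. The neighbour Smc5 took 10 peaks of the window.

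Klf10, named for its early induction by TGF-beta, and Klf13, a repressor known from T cells, held the highest NKX2-1 ranks of the 8 genes in replicates 2 and 3. Over chr15:38298452-38302279, the Klf10 gene end of higher coordinate, NKX2-1 had 7.11, 7.998 and 8.31, percentiles 87.2, 99.7 and 99.7. PRDM16 disagreed between its antibodies at Klf10, with 13.38 in replicate 1, the highest of the 8 genes, and 4.86 in replicate 2, and PRDM3 had 3.83, the lowest of the 8. H3K4me3 had 25.9, 30.9 and 35.5. Outside H3K4me3, Klf10 had 19 sites, 4 of them in 2 or more libraries, among them chr15:38323561-38324519 in 4 libraries.

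Over the 5′ end of Klf13, chr7:63935783-63939889, NKX2-1 had 11.5, 6.94 and 10.09, and the last was the highest of the 8 genes at percentile 99.9 of its list. PRDM16 had 10.1 and 9.39, PRDM3 5.42 and H3K4me3 27.7, 24.1 and 55.0. Inside the gene, chr7:63896779-63897590 was a smaller H3K4me3 region of 812 bases, seen in H3K4me3 replicates 1 and 2 (12.1 and 10.3) and not in replicate 3. There NKX2-1 had 12.9 in replicate 1, 3.37 in replicate 3 and no peak in replicate 2, PRDM16 had 11.2 and 13.41, and PRDM3 had 7.85. The PRDM values at the internal region were above those at the 5′ end in all 3 PRDM libraries. Klf13 had 34 factor peaks, 20 of them over H3K4me3. E030018B13Rik, a predicted gene that overlaps it, took 22 further peaks, H3K4me3 peaks included.

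**Figure D4:**
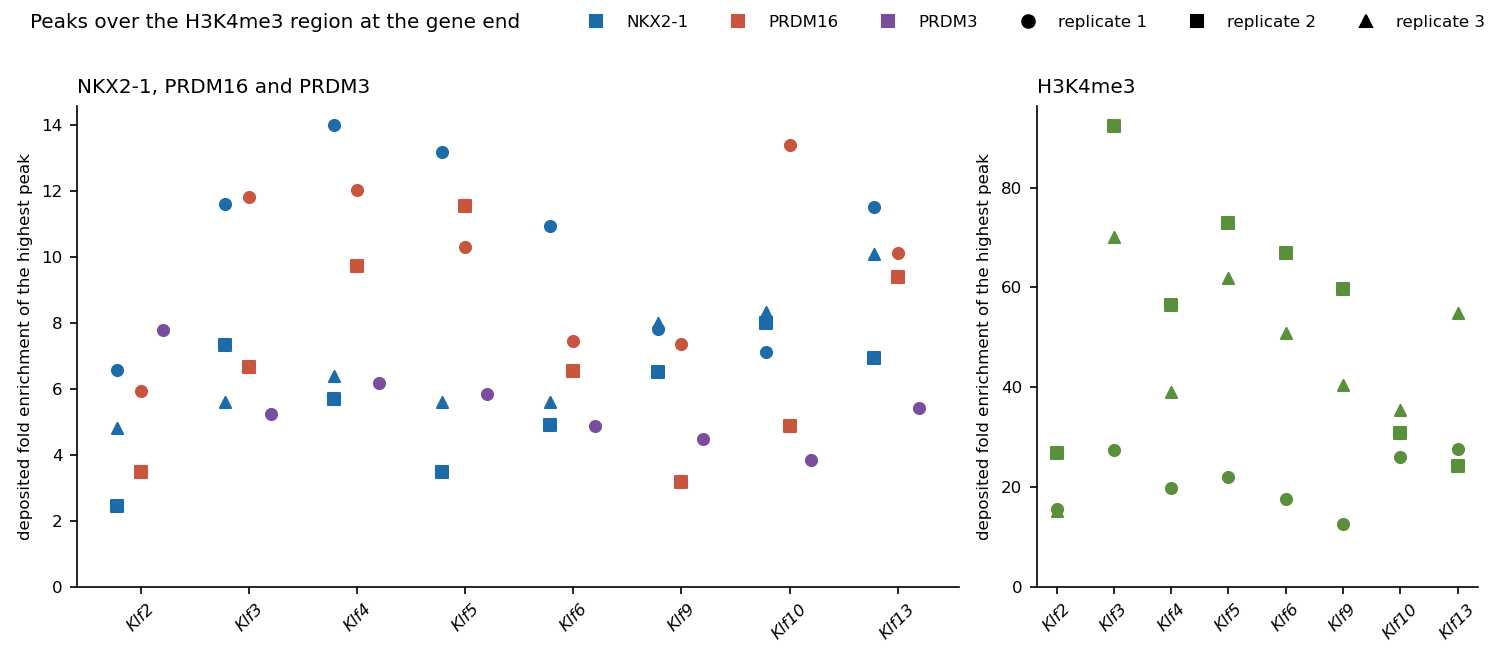
Deposited fold enrichment of the highest peak over the H3K4me3 region at the gene end (vertical axis, starting at 0) for each gene (horizontal axis), with colour for the protein or mark and shape for the replicate, factor libraries on the left and H3K4me3 on the right with its own scale. Klf2 has the lowest NKX2-1 points (6.57, 2.44 and 4.79) and the highest PRDM3 point (7.77), and H3K4me3 replicate 1 lies below the other replicates at 6 of the 8 genes.

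Ordered by the mean rank percentile of the gene-end NKX2-1 peak, Klf13 stood at 98.8 ± 1.49 (SD, n = 3), Klf4 at 98.6 ± 0.233, Klf3 at 98.2 ± 1.24, Klf6 at 97.0 ± 0.561, Klf9 at 96.3 ± 5.35, Klf10 at 95.5 ± 7.23, Klf5 at 94.5 ± 6.12 and Klf2 at 72.9 ± 29.8. The ranges of neighbours in this order overlapped in every case, Klf5 and Klf2 included. By H3K4me3 the order ran from Klf3 (96.3 ± 5.48, SD, n = 3) over Klf5 (90.2 ± 11.4) and Klf6 (82.2 ± 16.8) to Klf2 (43.3 ± 14.2), and again no neighbours were apart. By PRDM16 it ran from Klf4 (97.8 ± 0.269, SD, n = 2), Klf5 (97.6 ± 1.98), Klf13 (96.8 ± 1.21) and Klf3 (94.8 ± 3.66) to Klf6 (91.5 ± 0.601), Klf10 (90.03 ± 11.7), Klf9 (72.9 ± 25.5) and Klf2 (71.7 ± 19.9). There Klf3 and Klf6 were the sole neighbours whose values did not overlap. In the weak NKX2-1 lists fold values come in steps: Klf3, Klf5 and Klf6 had the same 5.59 in replicate 3, so ranks among them are ties.

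The highest linked peak of a gene, wherever it lay, was in the top 10% of its list for 6, 6 and 8 of the 8 genes in NKX2-1 replicates 1 to 3, against 20.2%, 21.7% and 30.4% of all genes. For PRDM16 it was 7 and 6 of 8 against 33.5% and 21.9%, and for PRDM3 5 of 8 against 17.0%. For H3K4me3 it was 1, 3 and 4 of 8 against 8.62%, 7.05% and 6.56%. Klf2 was outside the top 10% in 4 of the 6 factor libraries and Klf10 in 3. The bound of 10% was set with the values known. A gene with more linked peaks has more from which its highest is taken. The 8 genes had a median of 37 linked factor peaks against 10 over all genes, and the part of this in the shares was not tested.

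In the 6 genes with known strand, most factor summits and no H3K4me3 summit lay upstream of the 5′ end. Of 36 highest factor peaks over the 5′ H3K4me3 region (6 genes in 6 libraries), 26 had their summit upstream of the 5′ end, and the summits ranged from −912 to 2756 bases from it. The exceptions included all 3 PRDM libraries at Klf6 (55, 101 and 2756) and 3 of the 6 libraries at Klf13 (1535, 1377 and 1395). By library these were 5, 4 and 5 of 6 genes for NKX2-1 against 32.6%, 35.1% and 31.3% of all genes with strand, 5 and 4 of 6 for PRDM16 against 39.4% and 36.9%, and 3 of 6 for PRDM3 against 36.3%. Of 18 H3K4me3 summits, 0 lay upstream, with a range of 97 to 1843 bases inside, against 16.4%, 13.8% and 14.2% of genes. At Klf4, for example, the NKX2-1 summits lay at −276, 1237 and −375 bases and the H3K4me3 summits at 809, 1082 and 842. The 36 peaks are 6 loci seen repeatedly, so they are not independent, and this count was made after the positions were seen.

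For the linked peaks of the 8 genes, 3 comparisons between libraries were tested, with p-values adjusted over these 3 tests by Benjamini-Hochberg. With 3 libraries against 3, the smallest possible p is 0.1. The share of peaks over H3K4me3 was 41.3%, 41.3% and 52.2% in the NKX2-1 libraries (44.9% ± 6.28, SD, n = 3). It was 31.9% and 26.3% in the PRDM16 libraries and 45.7% in PRDM3 (34.6% ± 9.95, SD, n = 3). This group pools different proteins, so its SD is not a spread of replicates alone. PRDM3 lay among the NKX2-1 values, and the difference of 10.3 percentage points was not larger than the spread between libraries (exact two-sided permutation p = 0.3, adjusted 0.45). Over each whole list the shares were 35.6%, 18.7% and 18.0% in the NKX2-1 libraries, 18.0% and 22.9% in PRDM16 and 31.4% in PRDM3, so the peaks of the 8 genes lay over H3K4me3 more often than the list in each of the 6 libraries. Within the first letter series the difference was 6.69 points, and the second holds no PRDM library. It was 17.9 points with the 10000 highest peaks and 20.97 points for peaks whose −log10 q reached 5.

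The share of peaks whose midpoint lay within 1 kb of a gene end was 19.6%, 26.1% and 26.1% for NKX2-1 (23.9% ± 3.77, SD, n = 3) and 23.1%, 23.1% and 30.8% for H3K4me3 (25.6% ± 4.44, SD, n = 3). These shares overlapped, with a difference of −1.73 points (exact two-sided permutation p = 0.6, adjusted 0.6). Within the first and second series the differences were −3.51 and −0.836. The H3K4me3 peaks of these genes span several kb, so their midpoints often lie over 1 kb inside the gene. Placing peaks by their summits in place of midpoints gave −17.8 points, with the smallest p the design allows (exact two-sided permutation p = 0.1). The direction turned without NKX2-1 replicate 1 (0.446) or H3K4me3 replicate 3 (0.836). It also turned with the 10000 highest peaks (14.2) and when peaks had to reach a −log10 q of 5 (57.7). That last value rests on 18, 4 and 4 peaks in NKX2-1 replicates 1 to 3, against 13 in each H3K4me3 library.

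The median rank percentile of the genes' highest linked peaks was 97.0, 98.8 and 98.2 in the NKX2-1 libraries (98.0 ± 0.897, SD, n = 3). It was 96.6 and 96.1 in PRDM16 and 92.1 in PRDM3 (94.9 ± 2.47, SD, n = 3), again a pool of different proteins. The groups did not overlap and differed by 3.06 points, with the smallest p the design allows (exact two-sided permutation p = 0.1, adjusted 0.3), which does not pass 0.05. Over all genes with a linked peak the medians were 79.9, 77.7 and 75.4 in the NKX2-1 libraries, 86.4 and 79.6 in PRDM16 and 74.9 in PRDM3. Within the first series the difference was 2.08 points, and for peaks whose −log10 q reached 5 it was −29.6 points. In that last setting NKX2-1 replicates 2 and 3 kept 4 peaks each. A gene left without a peak was counted at the bottom of the list.

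Among 18 other Kruppel-like and Sp genes, a linked NKX2-1 region was found at 16, a PRDM16 region at 18, a PRDM3 region at 17, a shared region at 14 and H3K4me3 at the gene end at 12. At least 2 shared regions were linked to 3 of the 18, Klf12, Klf15 and Sp3 (named after their values were seen), against 5 of the 8 genes described here. A gene-end H3K4me3 region of at least 3500 bases was found at 4 of the 12 with a region. The 3 whose profile of highest-peak percentiles over the 6 factor libraries was nearest to the median profile of the 8 genes were Sp4 (mean absolute difference 2.12 percentile points), Klf11 (2.18) and Klf7 (2.86). For the 8 genes themselves, which define that median, the difference ran from 1.09 at Klf4 to 8.16 at Klf10 and 15.2 at Klf2. Sp4 stood at percentiles 99.0, 99.0 and 99.9 in NKX2-1, 96.0 and 98.4 in PRDM16 and 98.2 in PRDM3, and had 1 shared region. Klf15 had 5 shared regions, as many as Klf6, and no H3K4me3 region at its 5′ end.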

How the data were processed

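Peak lists of 9 of the 12 samples were analysed. Per the submitters' processing notes, the build was mm10 and the tools included MACS2, Bowtie2, Trimmomatic and HOMER, with no versions stated. Control libraries for peak calling are not given in the sources used here. In each deposited list the authors give, per peak, a score, a fold enrichment (a ratio of signal to background), −log10 p and −log10 q values, and another number, the offset of the summit from the peak's start. These are the authors' own values, and replicates were deposited as separate lists. Fold enrichment was ranked within a list, ties sharing their mean rank.

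Peaks of chromosomes 1 to 19, X and Y were linked by midpoint to the nearest end of a RefSeq protein-coding gene of GRCm38.p6 within 50 kb. Strand came from the RefSeq promoter table, which gave it for 79.9% of genes and 6 of the 8. Planned protein comparisons were not made, as the sequences used here were promoters. Regions needed at least 20 bases, and overlap at least 1 base. Named genes are all 8 Kruppel-like factor genes, the 3 other Kruppel-like or Sp genes with the nearest profile, and some direct neighbours that took peaks of a window. Klf12, Klf15 and Sp3 were named outside this rule, after their values were seen. The count for the immune and blood marker list is not reported here. The genes and lists were chosen with earlier results of these data known. Differences between libraries were tested by exact permutation. Alternatives were stricter or equal-length lists, 50% overlap, other links, summits in place of midpoints, each library left out, a replicate block, and, added after seeing the data, each letter series of peak names alone. Counting was tested on simulated data. Python 3.11.15, numpy 2.4.6, pandas 2.3.3 and matplotlib 3.10.9 were used.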

Additional observations from a re-analysis of the deposited data

How the results depend on the processing

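The count of genes with gene-end H3K4me3 stayed at 8 in all 8 alternatives, against 44.88% to 59.22% of all genes. The PRDM16 and PRDM3 counts lay between 6 and 8. The shares of all genes moved widely, from 14.56% to 81.55% for PRDM16 and from 16.16% to 67.23% for PRDM3. With only peaks of a −log10 q of at least 5, the NKX2-1 count was 5, the shared count 3, the difference in share within 1 kb 57.7 points (direction turned) and that in median percentile −29.6 points (turned). With the 10000 highest peaks, the shared count was 5 and the share within 1 kb differed by 14.2 points (turned). With summits in place of midpoints that share differed by −17.8 points. The cause of these changes was not tested. Leaving out 1 library at a time, the difference in share over H3K4me3 ran from 6.16 (without PRDM16 replicate 2) to 15.8 points (without PRDM3). It was 17.9 with the 10000 highest peaks and 20.97 for peaks whose −log10 q reached 5. The difference within 1 kb ran from −3.01 to 0.836, turning without NKX2-1 replicate 1 (0.446) or H3K4me3 replicate 3, and that in median percentile from 1.64 to 3.89. Groups share replicate numbers. For NKX2-1 and H3K4me3 libraries of the same number, deviations from the group means over 9130 genes correlated at 0.145, 0.0254 and 0.115. Between different numbers the values ran from −0.142 to 0.105. The same-number value was the highest for NKX2-1 replicates 1 and 3, and not for replicate 2. The numbers were not taken as pairs, since the labels do not say what they mark. With a replicate block the 3 differences were 12.2, −1.73 and 1.53 points (exact sign-flip p = 0.5 each), and 2 or 3 pairs cannot give a p that passes 0.05. Over 10 alternatives each, shared regions ranged from 0 to 5 at Klf6, 1 to 4 at Klf3, 1 to 3 at Klf13 and 0 to 3 at Klf10. With the ends of all gene types competing, Klf4 had 0 and Klf9 and Klf10 1 each. Read depth is unknown, and PRDM3 has no replicate.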
